A study of Homo sapiens with 3 samples.

Results

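Genes for G protein-coupled receptors and for the G proteins they act through were read from 5′-end counts of HEK293 cells, an established human cell line derived from embryonic kidney and widely used to study transfected receptors. Rows were taken by gene symbol. The rule matched 98 of the 17595 gene rows, and 96 remained after 2 antisense rows were left out. They comprised 64 receptor genes, 4 rows for the proteins GPR89A, GPR89B, GPR107 and GPR108, which are not classical receptors, 11 G alpha, 5 G beta and 8 G gamma genes, the 2 beta-arrestin genes, and ADRBK1 and ADRBK2. The last pair encode kinases that phosphorylate receptors and were matched only because their symbols begin like those of the beta-adrenergic receptors, so they were kept apart.

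The study holds 3 libraries of 1 group, untreated HEK293 cells grown in DMEM with glutamine and fetal calf serum, so genes were compared with each other inside each library, and libraries with each other. For each library 1000 cells were lysed together with ERCC spike-in RNA at 20000 molecules per cell, cDNA equal to 100 cells was amplified for 18 cycles, and only fragments from RNA 5′ ends were kept. The libraries are called 20, 21 and 23 after the index in their column headings. Nothing says that they came from separate cultures. Every limma p-value therefore reflects scatter among these 3 libraries alone, and that scatter may be technical. The limma fit pools part of it over all tested contrasts. A limma p-value or interval is therefore not a measure of the scatter of its own contrast alone. The exact binomial and chi-square tests cover counting error only and make no allowance for scatter among libraries. Total counts ranged from 1384172 to 1601555 and endogenous counts from 1330877 to 1545594, so that 1 count stood for 0.647 to 0.751 counts per 1000000 endogenous counts (CPM). A count of 0 allows up to 3 counts, or 1.94 to 2.25 CPM in a library, for counting error only. Because a tag marks the 5′ end of an RNA, counts were not divided by transcript length, and levels of different genes are compared on this per-end scale. All 6 genes fixed as HEK293 markers were listed, with a summed level of 564 to 595 CPM, and VIM was the highest of them at 340.1 ± 23.4 CPM (SD, n = 3). Of 22 markers of blood, endothelium, liver, neurons, muscle and adrenal gland 6 were listed, with a summed level of 5.26 to 12.9 CPM, and PTPRC, PECAM1, ALB, DES and TH had no row.

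A G protein-coupled receptor spans the membrane and, when a ligand binds, lets a G alpha subunit exchange GDP for GTP. The alpha subunit then parts from the paired beta and gamma subunits, and both sides of the complex act on enzymes and channels. Gs raises and Gi lowers the formation of cyclic AMP, Gq activates phospholipase C beta, and the G12 class acts on guanine nucleotide exchange factors of small GTPases. Receptor kinases and beta-arrestins end the signal and take receptors into the cell. HEK293 cells are a common host for such receptors, and what they express themselves sets the partners and the background of such experiments.

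Since tags were counted at 5′ ends, the promoters of the most counted members with a single start in RefSeq are shown, 1 for each subunit class (GNG5, GNAI3 and GNB2). That of ADORA2B, a receptor of known ligand with a single start, is shown with them. Each runs from 250 bases before to 50 after the RefSeq start in the build GRCh38.p14, which is not the build of the counts. Capitals mark GGGCGG or CCGCCC, the GC box on either strand, and CCAAT or ATTGG, the CCAAT box on either strand. The positions are chr1:84506532-84506831 on the minus strand for GNG5, chr1:109548365-109548664 on the plus strand for GNAI3, chr7:100673490-100673789 on the plus strand for GNB2 and chr17:15944880-15945179 on the plus strand for ADORA2B.
GNG5: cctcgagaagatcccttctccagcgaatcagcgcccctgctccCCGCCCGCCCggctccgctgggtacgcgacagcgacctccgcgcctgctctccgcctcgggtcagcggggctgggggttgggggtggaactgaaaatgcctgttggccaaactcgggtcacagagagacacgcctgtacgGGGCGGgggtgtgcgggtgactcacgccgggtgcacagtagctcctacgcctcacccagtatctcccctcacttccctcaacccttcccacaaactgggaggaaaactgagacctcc
GNAI3: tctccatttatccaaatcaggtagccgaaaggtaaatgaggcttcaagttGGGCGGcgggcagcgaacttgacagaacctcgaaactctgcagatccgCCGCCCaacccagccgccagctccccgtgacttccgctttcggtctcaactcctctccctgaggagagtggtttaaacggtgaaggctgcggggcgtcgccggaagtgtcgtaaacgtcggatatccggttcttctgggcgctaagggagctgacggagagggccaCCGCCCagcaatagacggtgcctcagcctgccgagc
GNB2: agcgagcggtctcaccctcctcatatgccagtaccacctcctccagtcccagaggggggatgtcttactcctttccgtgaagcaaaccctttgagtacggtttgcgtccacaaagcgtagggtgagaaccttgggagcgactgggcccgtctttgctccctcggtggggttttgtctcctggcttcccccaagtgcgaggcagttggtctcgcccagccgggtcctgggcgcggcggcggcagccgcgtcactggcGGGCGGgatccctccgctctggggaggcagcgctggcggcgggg
ADORA2B: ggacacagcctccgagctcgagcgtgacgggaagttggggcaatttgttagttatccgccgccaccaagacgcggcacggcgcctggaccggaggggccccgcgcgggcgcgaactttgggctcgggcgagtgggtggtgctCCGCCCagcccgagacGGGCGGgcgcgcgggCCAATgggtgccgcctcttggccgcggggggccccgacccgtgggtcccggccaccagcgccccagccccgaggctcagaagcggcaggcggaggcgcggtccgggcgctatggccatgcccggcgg

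These windows are rich in CG dinucleotides, with 23 in that of GNG5, 25 in that of GNAI3, 24 in that of GNB2 and 41 in that of ADORA2B. The GC box occurs 3 times in GNG5, 3 times in GNAI3, 1 time in GNB2 and 2 times in ADORA2B, counting overlaps, and the letters TATAAA occur on neither strand of any of them. A RefSeq window was found for 27 of the 29 members averaging at least 10 CPM, and where a gene had several starts the first in the table was used. The median number of CG dinucleotides was 30 in these 27, against 14 over the windows of 27305 RefSeq genes. Those include genes without a row here, so the comparison does not tie the letters to the level of a member. The number ran from 4 (GNAI2) to 53 (ADRBK1) in these 27. In members under 1 CPM with a window it ran from 1 (GNG2) to 54 (OPRL1). GGGCGG or its complement was in 23 of the 27 windows (85.2%), against 44.6% of all windows. TATAAA or TTTATA was in 1 of them, that of GPR108 (3.70%), against 11.95% of all windows, and CCAAT or ATTGG in 11 (40.7%), against 35.7%. The cyclic AMP response element TGACGTCA was in 1, that of GNG7 (3.70%), against 1.98% of all windows. A match describes these letters and is not evidence of a binding site.

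G protein genes were mostly well counted and receptor genes mostly near the level of single counts. The 24 G protein genes together took 0.165% ± 0.0056 of endogenous counts and the 64 receptor genes 0.0292% ± 0.0021 (SD, n = 3). Of the G protein genes 16 averaged at least 10 CPM (66.7%) and of the receptor genes 8 (12.5%), against 44.6% of all listed genes. The median level was 26.1 CPM for G protein genes and 1.51 CPM for receptor genes, against 7.16 CPM over all listed genes. Counts in all 3 libraries were found for 19 of 24 G protein genes (79.2%) and 37 of 64 receptor genes (57.8%), against 72.6% of all listed genes. Of the 64 receptor genes 17 had counts in a single library, against 3035 of the 17595 listed genes. A row enters the table only with at least 1 count, so these shares describe listed genes. By the spike-in counts the G protein genes summed to 864 ± 69.4 molecules per cell and the receptor genes to 153 ± 18.3 (SD, n = 3), provided that cellular RNA was captured as well as the spikes. In a pool of cells a low level in every cell and a high level in a few cells cannot be told apart.

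**Figure D1:**
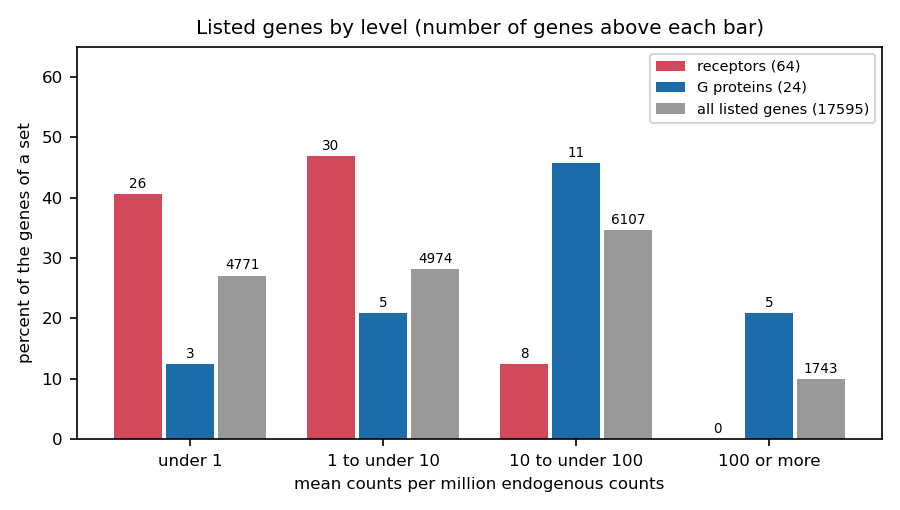
Percent of receptor genes, G protein genes and all listed genes by mean level over 3 libraries, in CPM, with the number of genes above each bar. Of the receptor genes 26 lie under 1 CPM and 0 reach 100 CPM, whereas 5 of the G protein genes reach 100 CPM.

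GNAS, which encodes the Gs alpha subunit, was the most counted G alpha gene. It had 548, 508 and 630 counts in libraries 20, 21 and 23, or 387 ± 18.7 CPM (SD, n = 3), which was 54.5% ± 0.80 of all G alpha counts. GNAS has 6 starts in RefSeq, and which of them its counts cover is not known. The next gene, GNAI3 of the Gi class, had 201, 194 and 212 counts, or 139.7 ± 5.27 CPM. These ranges did not overlap. The other Gi genes were lower. GNAI2 had 47, 33 and 51 counts (29.9 ± 4.44 CPM) and GNAI1 had 42, 44 and 43 counts (29.8 ± 2.86 CPM), and their ranges overlap. GNAZ, a Gi class member that pertussis toxin does not modify, had 12, 11 and 9 counts, while GNAT2, the cone transducin, had 3, 3 and 0, and GNAO1, the abundant alpha subunit of neurons, had 1 count in library 20 alone.

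The Gq and G12 classes were each carried by a pair of genes. For the Gq class these were GNA11 with 67, 49 and 94 counts (47.7 ± 12.2 CPM) and GNAQ with 32, 45 and 39 counts (26.9 ± 6.24 CPM), and GNA11 was higher in each library. For the G12 class GNA13 had 41, 37 and 31 counts (25.2 ± 4.47 CPM) and GNA12 had 17, 20 and 29 counts (15.1 ± 3.62 CPM). GNA14, GNA15, GNAT1 and GNAT3 had no row. GNAL, the olfactory Gs class gene, lies outside the symbol rule and had 9, 0 and 5 counts. By coupling class the Gi genes took 29.4% ± 1.47 of G alpha counts, the Gq genes 10.5% ± 1.05 and the G12 genes 5.68% ± 0.39 (SD, n = 3).

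Of the beta subunits, which form a tight dimer with a gamma subunit, GNB2 and GNB1 were the most counted. GNB2 had 134, 127 and 202 counts in libraries 20, 21 and 23 (106 ± 21.8 CPM) and GNB1 had 107, 124 and 154 (88.4 ± 14.2 CPM). GNB2 was above GNB1 in each library, but the ranges overlap. GNB4 had 35, 43 and 41 counts (27.5 ± 4.38 CPM). GNB5, a divergent beta subunit that pairs with RGS proteins, had 10, 12 and 17 counts, and GNB3, known from cone photoreceptors, had 6, 0 and 2. GNB2 and GNB1 made up 45.3% ± 3.56 and 38.1% ± 2.14 of G beta counts (SD, n = 3).

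A single gene led the gamma subunits, small prenylated proteins that anchor the dimer in the membrane. GNG5 had 664, 586 and 725 counts, or 453 ± 14.6 CPM (SD, n = 3), was the most counted of all 96 genes and stood at rank 365 among all listed genes. By the spike-in counts this equals 237 ± 19.9 molecules per cell. GNG10 followed with 239, 216 and 216 counts (155 ± 12.9 CPM), and GNG12 with 85, 69 and 84 (54.6 ± 2.88 CPM). GNG10 is part of a read-through gene with DNAJC25, and how tags of the 2 genes were split is not known. GNG4 had 35, 32 and 28 counts and GNG7 had 30, 25 and 31, with overlapping ranges. GNGT1, a gamma subunit gene outside the symbol rule, had 12, 9 and 11 counts and is in none of the sums. GNG11, which carries a farnesyl rather than a geranylgeranyl anchor, had 1, 4 and 3 counts, GNG2 had 3, 1 and 0 and GNG3, a brain form, had 1 count in library 23 alone.

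Of the arrestins, ARRB2 had 86, 80 and 99 counts (60.8 ± 2.95 CPM) and ARRB1 had 16, 6 and 9 (7.06 ± 3.34 CPM), so that ARRB2 supplied 89.7% ± 4.69 of arrestin counts (SD, n = 3). The lowest library of ARRB2 was above the highest of ARRB1. The receptor kinase genes ADRBK1 and ADRBK2, also known as GRK2 and GRK3, had 20, 30 and 37 and 16, 6 and 11 counts, and ADRBK1 was the higher of the pair in each library.

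**Figure D2:**
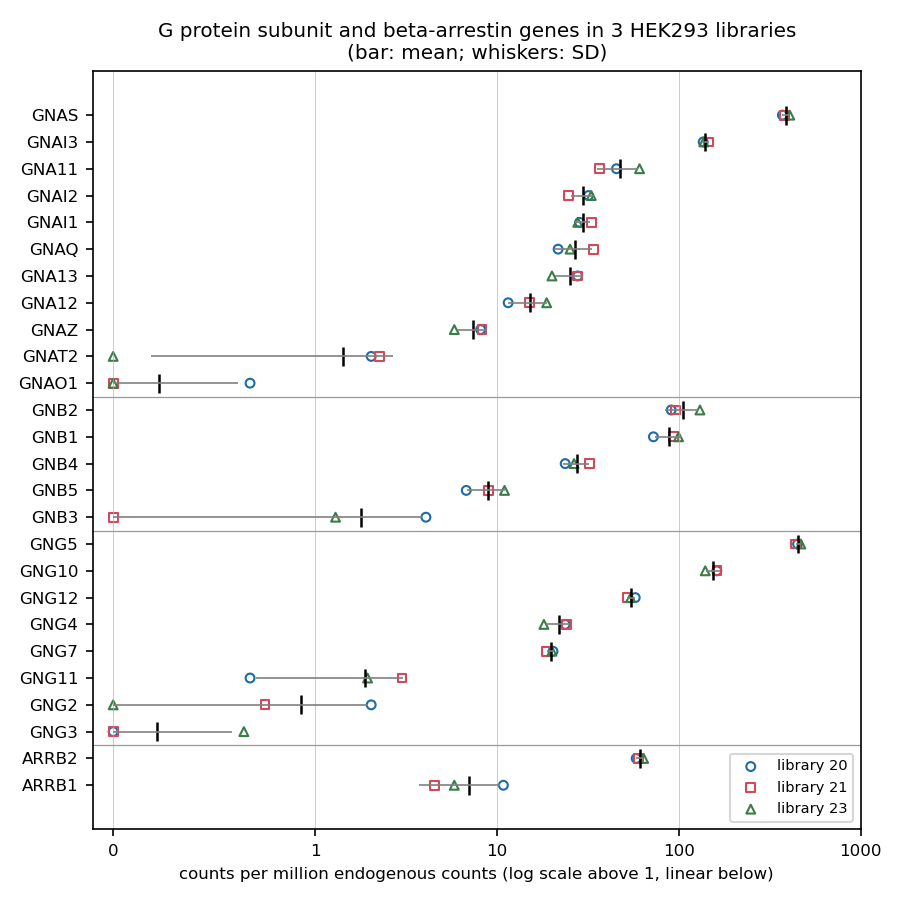
Level of each G alpha, G beta, G gamma and beta-arrestin gene of the symbol rule in the 3 HEK293 libraries, in CPM. The axis is linear below 1 and logarithmic above. Open symbols are libraries, the bar is the mean and whiskers are the SD, drawn no lower than 0. GNG5 and GNAS lie at the right at 453 and 387 CPM, and GNB3, GNAT2, GNAO1, GNG2 and GNG3 have at least 1 library at 0.

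Among receptors, 8 rows averaged at least 10 CPM, and they took 56.5% ± 0.96 of all receptor counts (SD, n = 3). GPR180, placed among the receptors by its symbol alone, was the highest with 56, 52 and 62 counts in libraries 20, 21 and 23, or 39.0 ± 1.08 CPM. LPHN2 and LPHN1, adhesion receptors of the latrophilin family that bind teneurins and FLRT proteins on other cells, had 34, 35 and 42 counts (25.5 ± 2.18 CPM) and 33, 16 and 27 counts (17.3 ± 5.17 CPM). The row GPR75-ASB3 had 39, 33 and 31 counts (23.8 ± 3.31 CPM). It is a read-through gene, GPR75 and ASB3 have no row of their own, and its counts cannot be assigned to the receptor. GPR137, a protein of lysosomes, had 24, 19 and 30 counts (16.6 ± 2.59 CPM).

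Like LPHN1 and LPHN2, the other 3 of these rows have known extracellular ligands. ADORA2B, the low-affinity adenosine receptor that couples to Gs, had 25, 20 and 23 counts, or 15.6 ± 1.15 CPM (SD, n = 3), equal to 8.17 ± 0.64 molecules per cell by the spikes. LGR4, which binds R-spondins and enhances Wnt signalling, had 18, 16 and 34 counts (15.4 ± 5.71 CPM), with library 23 above the others. LPAR3, a receptor for lysophosphatidic acid, had 17, 16 and 19 counts (11.9 ± 0.39 CPM). The next 5 receptors were GPR63 at 9.65 ± 1.65 CPM, GPR160 at 8.36 ± 3.43 CPM, GPR125 at 7.39 ± 3.98 CPM, GPRC5B at 6.47 ± 1.82 CPM and LPHN3 at 6.05 ± 3.03 CPM. Neighbours in this order have overlapping ranges over the libraries.

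**Figure D3:**
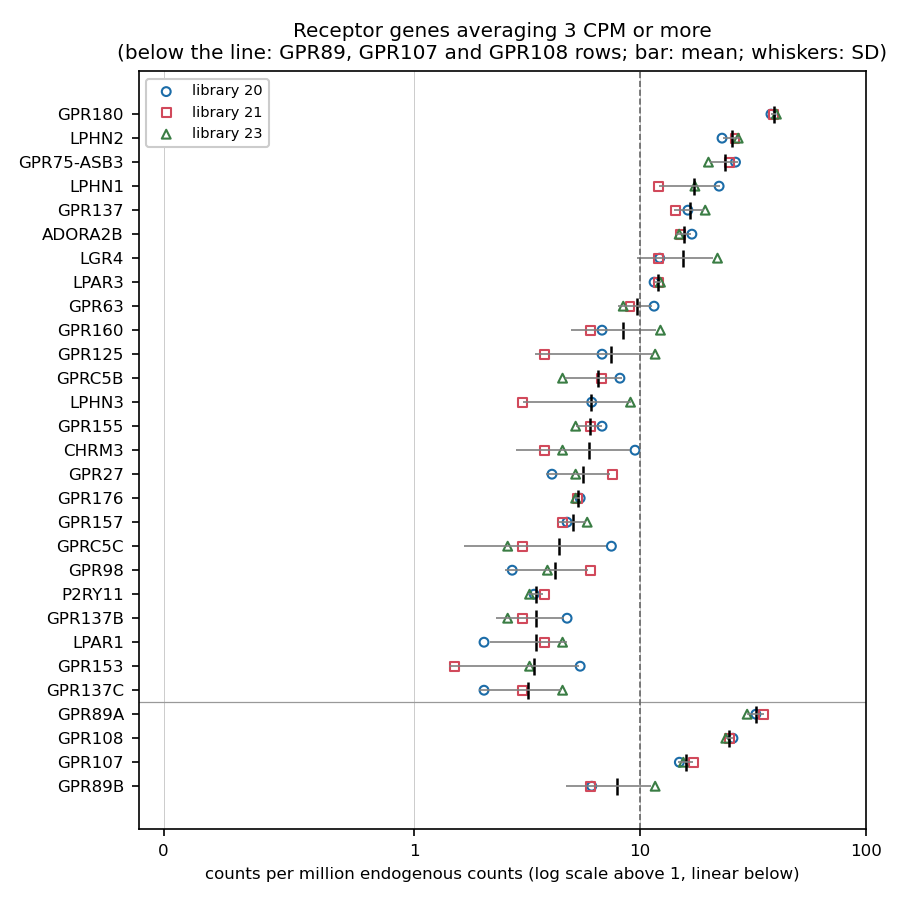
Levels of the 25 receptor rows averaging at least 3 CPM and, below the line, of the GPR89, GPR107 and GPR108 rows in the 3 HEK293 libraries, in CPM on an axis that is linear below 1 and logarithmic above. Open symbols are libraries, the bar is the mean, whiskers are the SD and the dashed line marks 10 CPM. GPR180 is highest at 39.0 CPM, and from GPR63 at 9.65 CPM downwards the ranges of neighbouring receptors overlap.

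In the adenosine, lysophosphatidic acid and muscarinic receptor families 1 gene held most of the counts. No gene did so in the sphingosine 1-phosphate and serotonin families, where counts were few. In 12 families whose names have stayed the same or map to a single current symbol, RefSeq has 69 protein-coding genes, of which 31 were listed, 18 averaged at least 1 CPM and 5 at least 10 CPM. RefSeq genes as a whole were not counted in this way, so these numbers say nothing particular about receptors. Of the 4 adenosine receptor genes, ADORA2B and ADORA2A were listed, and ADORA2A had 2 counts, both in library 23. Of 6 lysophosphatidic acid receptor genes 4 were listed, with 52 pooled counts for LPAR3, 15 for LPAR1, 3 for LPAR2 and 1 for LPAR6. Of 5 muscarinic receptor genes only CHRM3, which couples to Gq, was listed, with 14, 5 and 7 counts (5.92 ± 3.11 CPM). Of the adrenergic receptor genes ADRA2C had 13 pooled counts and ADRB1 had 1. Of 10 P2Y receptor genes P2RY11, P2RY1 and P2RY2 were listed, with 15, 9 and 1 counts, and tags of P2RY11 may be shared with a read-through gene of PPAN. None of 12 serotonin receptor genes that couple to G proteins reached 1 CPM, and HTR1D, HTR6 and HTR7 had 1 count each. The 4 listed sphingosine 1-phosphate receptors had 1 to 5 counts each, PTGER2 and PTGER4 of the prostaglandin E family had 4 and 3, and the nociceptin receptor gene OPRL1, the only listed opioid family gene, had 1.

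Adhesion receptors contributed more of the receptor counts than any of these ligand families. The 10 listed adhesion genes summed to 65.1, 57.1 and 76.3 CPM in libraries 20, 21 and 23 and took 22.6% ± 1.83 of receptor counts (SD, n = 3). They include LPHN1, LPHN2, LPHN3, GPR125, GPR126, GPR98, GPR124, GPR64 and GPR97. Adenosine and P2Y receptors together took 7.43% ± 0.27, receptors for lipid mediators (LPAR, S1PR and PTGER genes) 7.21% ± 0.73, LGR4 and LGR5 6.24% ± 1.67, the GPRC5 genes 4.23% ± 1.82, and adrenergic, serotonin and muscarinic receptors 4.12% ± 0.47. OPRL1 supplied 0.076% ± 0.13. The 26 remaining rows, all with GPR symbols, took 48.1% ± 2.35, and 11 of them stayed under 1 CPM. Among them GPR155, a lysosomal protein, had 5.99 ± 0.80 CPM and GPR161, a ciliary receptor that restrains Hedgehog signalling, had 2.92 ± 1.26 CPM.

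Of the 4 rows that are not classical receptors, GPR89A, GPR108 and GPR107 averaged above 10 CPM and GPR89B averaged 7.92 ± 3.23 CPM (SD, n = 3). GPR89A and GPR89B encode near-identical Golgi pH regulators and had 48, 47 and 46 and 9, 8 and 18 counts, a split that depends on how reads of such copies were assigned. GPR108 had 38, 33 and 37 counts (24.8 ± 0.91 CPM) and GPR107 had 22, 23 and 24 (15.9 ± 1.23 CPM); both are membrane proteins of the Golgi.

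Of 51 contrasts fixed by name, 40 could be tested, and 32 passed the threshold (80.0%; limma moderated test on the log2 ratio of counts in each library, Benjamini-Hochberg adjusted p under 0.05 over the 40). In 6 contrasts a gene had no row and in 5 both genes together had fewer than 10 counts. Pairs of other genes were not tested, so the share passing has no background and says nothing particular about these members. Of the tested contrasts 5 had fewer than 4 counts on a side, and their fitted ratios lean on the pseudocount. Each log2 ratio below is of the first gene over the second, with its 95% interval. Levels of GNAI3 exceeded those of GNAI2 by 2.22 (1.70 to 2.74, limma adjusted p = 0.0016, higher in 3 of 3 libraries), and GNAS exceeded GNAI2 by 3.69 (3.22 to 4.16, adjusted p = 0.00036). GNAI1 over GNAI2 gave 0.00 (-0.59 to 0.59, adjusted p = 0.99). GNAZ lay below GNAI2 at -1.97 (-2.65 to -1.29, adjusted p = 0.0032). For GNAO1 the ratio of pooled counts to GNAI2 was 0.00763, with a counting interval of 0.000192 to 0.0433.

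Within both the Gq and the G12 class the ratio missed the threshold. GNAQ over GNA11 was -0.81 (-1.66 to 0.03, limma adjusted p = 0.065) and GNA13 over GNA12 was 0.74 (-0.09 to 1.56, adjusted p = 0.077). Without library 21 GNAQ lay below GNA11 by -1.16 (limma adjusted p = 0.0074), and without library 23 GNA13 lay above GNA12 by 1.06 (adjusted p = 0.023). Such a refit has fewer libraries and its own pooled scatter, so its lower p is not stronger evidence. GNB2 over GNB1 was 0.25 (-0.21 to 0.71, limma adjusted p = 0.21). GNB4 and GNB5 were below GNB1, at -1.67 (-2.14 to -1.20) and -3.27 (-3.69 to -2.85), with limma adjusted p of 0.0023 and 0.00036. GNB3 had 8 pooled counts, or 0.0208 of those of GNB1, with a counting interval of 0.00891 to 0.0414. The fitted log2 ratio of -5.99 (limma adjusted p = 0.0049) depends on the pseudocount in library 21, where GNB3 had 0 counts, and was -4.999 without library 21 and -6.95 without library 20.

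All 6 gamma contrasts placed the other gene below GNG5 in 3 of 3 libraries. GNG5 was the most counted gamma gene, so this direction followed from its choice as the reference. The log2 ratio was -1.55 for GNG10 (-2.00 to -1.10, limma adjusted p = 0.0023), -3.05 for GNG12 (-3.45 to -2.64, adjusted p = 0.00036), -4.36 for GNG4 and -4.50 for GNG7 (adjusted p = 0.00036 for each). GNG11 and GNG2 rested on 8 and 4 counts, and their pooled counts were 0.00405 and 0.00203 of those of GNG5, with counting intervals of 0.00175 to 0.0080 and 0.000551 to 0.00519. ARRB2 exceeded ARRB1 by 3.14 (2.24 to 4.04, limma adjusted p = 0.0023).

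Receptor contrasts rested on fewer counts. LGR5 lay below LGR4 at -2.19 (-2.83 to -1.55, limma adjusted p = 0.0023), and the ratio for LPHN1 over LPHN2 of -0.59 (-1.36 to 0.17, adjusted p = 0.11) missed the threshold. LPHN3 was below LPHN2 at -2.13 (adjusted p = 0.0072, or 0.061 without library 20). GPR137B and GPR137C were below GPR137, at -2.19 and -2.32 (adjusted p = 0.0032 and 0.0023). GPRC5B exceeded GPRC5A by 2.39 (adjusted p = 0.023, or 0.099 without library 20), and by 1.64 without library 23, where GPRC5A had 0 counts. The ratio of GPRC5C over GPRC5A was 1.75 (-0.02 to 3.52, adjusted p = 0.063), with 1.72, 0.36 and 3.17 in libraries 20, 21 and 23. Without library 21 it was 2.44. The limma adjusted p of 0.00011 in that refit rests on scatter pooled over contrasts, not on the agreement of the remaining libraries. P2RY1 over P2RY11 was -0.84 (-2.08 to 0.39, adjusted p = 0.14). GPR126 was below GPR125 at -1.21 (adjusted p = 0.019, or 0.11 without library 20). LPAR3 had 17.3 times the pooled counts of LPAR2, with a counting interval of 5.61 to 86.8 and ADORA2A had 0.0294 of those of ADORA2B (0.00349 to 0.11). LPAR1 had 5 times the pooled counts of LPAR2 (1.41 to 26.9). This call (limma adjusted p = 0.025) was missed without library 20 (adjusted p = 0.072). GPR108 exceeded GPR107 by 0.63 (0.21 to 1.06, limma adjusted p = 0.021), which missed the threshold without library 20, without 21 and without 23 (adjusted p from 0.065 to 0.11), and GPR89B lay below GPR89A at -2.05 (adjusted p = 0.0054, or 0.061 without library 20).

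Summed over the classes, beta subunit genes had fewer counts than alpha and gamma subunit genes, and the gamma over alpha ratio missed the threshold. G alpha genes summed to 685, 709 and 736 CPM in libraries 20, 21 and 23, G gamma genes to 716, 701 and 704 CPM and G beta genes to 198, 229.9 and 269 CPM. The log2 ratio of G gamma over G alpha was -0.01 (-0.41 to 0.40, limma adjusted p = 0.99), that of G beta over G alpha was -1.62 (-2.07 to -1.17, adjusted p = 0.0023) and that of G gamma over G beta was 1.62 (1.13 to 2.11, adjusted p = 0.0024). These are ratios of sums over classes of unequal size. By class medians G beta over G alpha was 0.02 (limma adjusted p = 0.94), G gamma over G alpha was -0.36 (adjusted p = 0.085) and G gamma over G beta was -0.38 (adjusted p = 0.12). Receptors summed to less than G alpha genes, with a log2 ratio of -1.28 (-1.70 to -0.87, adjusted p = 0.0028), which by class medians was -3.57 (limma adjusted p = 0.00039). Arrestins lay below G alpha genes at -3.38 (-3.79 to -2.97, adjusted p = 0.00036), which by class medians was 0.33 (adjusted p = 0.12). The Gi class exceeded the Gq class by 1.49 (1.01 to 1.96, adjusted p = 0.0028); by medians the order turned (-1.09, adjusted p = 0.0077). The G12 class was below the Gq class at -0.87 (-1.36 to -0.39, adjusted p = 0.012, or 0.071 without library 20).

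**Figure D4:**
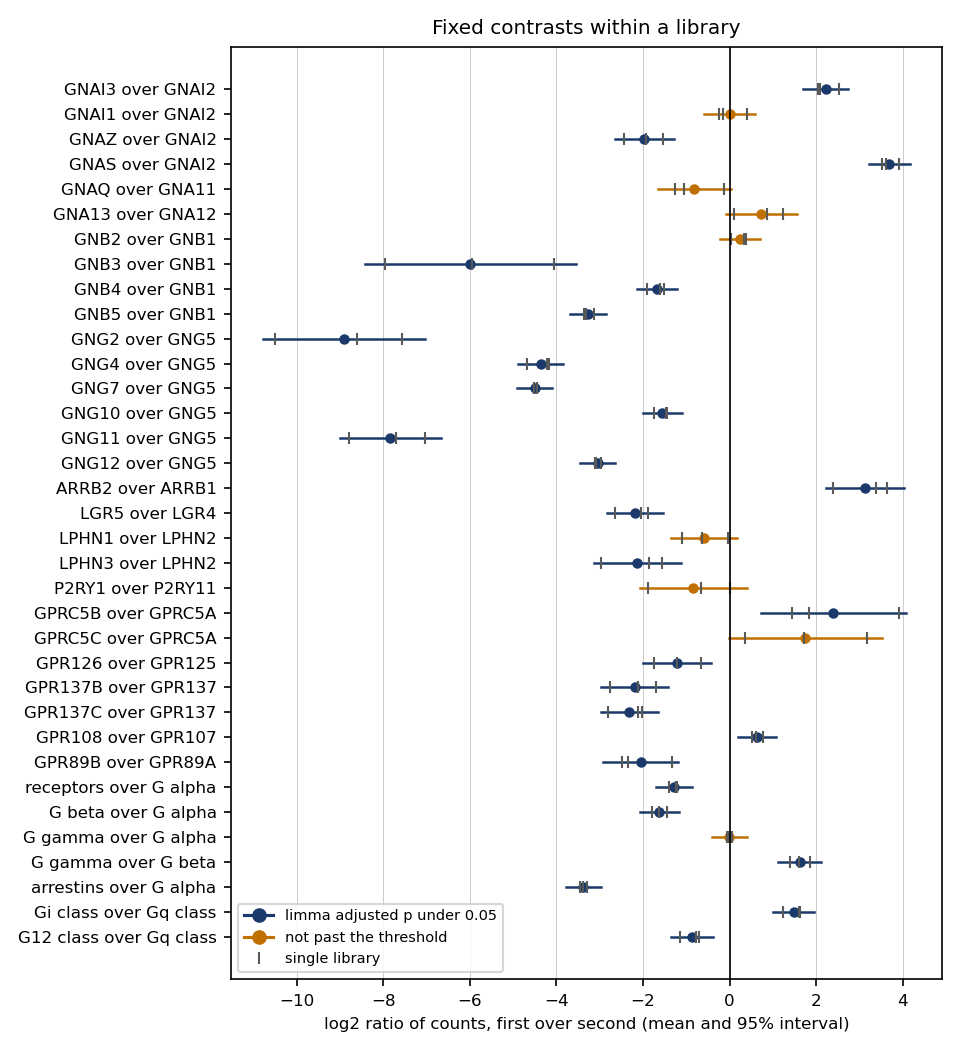
Log2 ratio of counts of the first gene or class over the second for the 35 tested contrasts with at least 4 pooled counts on each side. Dots are means over 3 libraries, lines their 95% intervals, ticks the single libraries, and colour marks contrasts past the limma threshold. The gamma contrasts all lie left of 0, and GNAI1 over GNAI2, GNB2 over GNB1 and G gamma over G alpha have intervals that hold 0.

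No member differed between libraries past the threshold. Of 56 members with at least 10 pooled counts 0 passed an exact binomial test between any pair of libraries (2-sided, adjusted by Benjamini-Hochberg across genes and library pairs together), against 0.560% of 11424 genes (0.105% for library 20 against 21, 0.385% for 20 against 23 and 0.289% for 21 against 23), and 7 members (12.5%) had an unadjusted p under 0.05, against 15.9% of all genes tested. A chi-square test over the 3 libraries also called 0. Both tests cover counting error only. The lowest p belonged to GNB2, which was higher in library 23 than in library 20 (unadjusted exact p = 0.0010, adjusted p = 0.17). GNA11 and GNB1 were likewise highest in library 23.

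Companions of these receptors and G proteins, taken from 5 lists fixed by name, were counted to differing degrees, and 0 of their tested genes differed between libraries (exact binomial test, adjusted p under 0.05 over all genes; 0 of 19 effectors, 5 kinases, 9 RGS proteins, 8 chaperones and modulators and 22 other receptors, with 4, 2, 1, 0 and 3 at an unadjusted p under 0.05, a level reached by 15.9% of all genes tested). Of 27 effector genes 23 were listed and 8 averaged at least 10 CPM (34.8% of those listed, against 44.6% of all listed genes). They were led by the protein kinase A subunit genes PRKAR2A at 116 ± 13.6 CPM, PRKAR1A at 59.9 ± 5.91 CPM and PRKACA at 34.4 ± 3.54 CPM, followed by ARHGEF12, a guanine nucleotide exchange factor that the G12 class activates, at 26.8 ± 8.75 CPM (SD, n = 3). Of 7 genes for kinases that act on receptors 6 were listed, with GRK6 at 47.5 ± 6.63 CPM above ADRBK1 at 20.0 ± 5.64 CPM, ADRBK2 at 7.49 ± 3.18 CPM and GRK4 at 6.55 ± 2.43 CPM.

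RGS proteins speed the hydrolysis of GTP by alpha subunits, and 12 of 20 of their genes were listed. Of these 6 averaged at least 10 CPM (50%), against 44.6% of all listed genes. RGS10 had 58.9 ± 9.52 CPM, RGS19 24.0 ± 1.38 CPM, RGS14 20.8 ± 4.45 CPM and RGS2 18.6 ± 4.72 CPM (SD, n = 3). All 9 genes for chaperones and modulators of G proteins were listed and 8 of them reached 10 CPM on average (88.9%). The median of the 9 was 20.1 CPM, against 7.16 CPM over all listed genes. CCT2, a subunit of the cytosolic chaperonin, which folds beta subunits among many other proteins, had 724 ± 30.0 CPM. PDCL3 had 93.1 ± 6.66 CPM, UNC119, which binds acylated alpha subunits, 41.0 ± 5.25 CPM, and RIC8A, a chaperone of alpha subunits, 23.7 ± 3.07 CPM. Of 61 further receptors outside the symbol rule 33 were listed, and 4 averaged at least 10 CPM (12.1% of those listed). These were TPRA1 at 60.3 ± 11.6 CPM, the Wnt receptor gene FZD3 at 23.1 ± 3.55 CPM, and the protease-activated receptor genes F2R at 11.5 ± 2.94 CPM and F2RL1 at 10.1 ± 2.45 CPM.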

How the data were processed

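RNA 5′ ends were counted per gene in 3 HEK293 libraries. The authors deposited raw counts per gene, whole numbers with no normalization, and the submitters' processing notes list STAR 2.4.0a, cutadapt 1.2.1 and the build hg19 (GRCh37). Counting tool, annotation, strand and collapsing of molecular identifiers: not given in the sources used here. A count is therefore either a read or a molecule. The table has 17675 rows, 80 of them spikes. Column headings show only an index, so columns served as unnumbered replicates.

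CPM are counts per 1000000 endogenous counts. Molecules per cell are counts over summed spike counts times 20000. Contrasts between genes used log2 ratios per library with a pseudocount of 0.5 per side and limma's moderated one-sample test. P-values were adjusted over the contrasts with both sides listed and at least 10 counts. The moderation pools part of the variance over the contrasts of a fit. No group test was possible with 1 group. Libraries were compared by exact binomial tests on all genes with at least 10 pooled counts. Counting intervals are exact 95% binomial (Clopper-Pearson) and cover counting error only. The tests were run on simulated counts. With 200 genes changed 2-fold in 1 library the test between libraries recovered 179 and made 30 false calls, and with no change it made 0. For the contrasts 18 of 20 true ratios of 4 were recovered, with 1 false call, at an assumed spread rather than that of these data. Named genes are all listed G protein and arrestin genes of the symbol rule, receptors from 10 CPM and the next 5. Genes of the contrasts and the 4 highest of each companion list are named too. GNAL and GNGT1 lie outside the rule and are in no class sum. Other named receptors, given as family counts, were chosen after their values were seen. The members and lists were chosen with earlier results of these data known. CXCR7 was found as ACKR3. Promoters are from RefSeq (GRCh38.p14) and were matched by symbol for 73 of 96 members. Medians and shares of promoter features are therefore given only for members from 10 CPM. Alternatives covered scaling (TMM from edgeR, median of ratios from DESeq2, spikes), minimum counts, pseudocount, test, class medians and leaving out each library. Software was Python 3.11.15, numpy 2.4.6, scipy 1.17.1, pandas 2.3.3, matplotlib 3.10.9, R 4.3.3, limma 3.58.1, edgeR 4.0.16 and DESeq2 1.42.0. Some genes of the symbol rule are counted in the totals but not reported here by name.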

Additional observations from a re-analysis of the deposited data

Results flagged for a closer look

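GNAS-AS1, an antisense gene of the GNAS locus that the symbol rule matched and that was left out as antisense, had 6, 4 and 5 counts in libraries 20, 21 and 23, or 15 in all and 3.44 ± 0.56 CPM (SD, n = 3). It drew attention because its total lies above the 3 counts that a count of 0 allows. The use of strand in counting is not known, so tags of GNAS and its antisense gene cannot be told apart with certainty. The other antisense row left out, ADORA2A-AS1, had 1 count.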

How the results depend on the processing

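The number of members averaging at least 10 CPM was 29, and 29 under each other scaling and 29 to 30 without a library. Counts in all 3 libraries were found for 64 members (66.7%), against 72.6% of all listed genes, and at least 3 counts in each library for 52 members. Under every alternative tried 0 members differed between libraries. Shares of endogenous counts moved when the most counted member of a class was left out, to 0.0253% for receptors (GPR180), 0.00487% for rows that are not classical receptors (GPR89A), 0.000749% for receptor kinases (ADRBK1), 0.0323% for G alpha (GNAS), 0.0127% for G beta (GNB2), 0.0254% for G gamma (GNG5) and 0.000706% for arrestins (ARRB2). Without rows that share reads with copies or read-through genes the shares were 0.0265% for receptors, 0.00407% for not classical receptors and 0.0552% for G gamma. Of 283 log2 ratios recomputed under an alternative 257 kept their direction and their side of the threshold. By class medians in place of sums the ratio turned to 0.020 for G beta over G alpha, -0.38 for G gamma over G beta, 0.33 for arrestins over G alpha and -1.09 for the Gi over the Gq class; a sum follows the leading gene and a median does not. Ratios near 0 changed sign: G gamma over G alpha lay between -0.041 and 0.024 when a library was left out, and GNAI1 over GNAI2 was -0.022 by pooled counts and lay between -0.20 (without library 21) and 0.12 when a library was left out. The G12 over the Gq class lay between -0.95 and -0.74 when a library was left out. With the exact binomial test on pooled counts 37 contrasts passed, against 32, since that test leaves out the spread between libraries. Limma passed 24 contrasts without library 20, 33 without library 21 and 32 without library 23. Each of these fits pools the scatter over contrasts anew. No paired analysis was possible because there is 1 group and the columns carry no replicate number. Depth limits most receptors, where 10 CPM rests on few counts per library.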
